A study of Mus musculus with 4 samples.

Results

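The comparison described here sets the library labelled Nos3-/- against the control library in the nuclei of the kidney tubule. Of the 23 numbered clusters in the deposited table, 19 were compared, those numbered 0 to 19 without the endothelial cluster 10, in 2 of the 4 libraries. By their markers, 16 of the 19 clusters were given a class name: proximal tubule-like (0, 1, 3, 5, 6 and 12), thin limb-like (18), thick ascending limb-like (2, 4 and 19), distal convoluted tubule-like (9), connecting tubule-like (11), principal cell-like (8), intercalated cell-like (14 and 16) and podocyte-like (15). Clusters 7, 13 and 17 stayed unnamed. The tubule label therefore also takes in a podocyte-like cluster, which belongs to the glomerulus, and 3 clusters whose markers do not settle a type. A gene counted as measured in a cluster when it reached 0.5 UMIs (unique molecular identifiers, tags that count RNA molecules) per 10000 in either library. Of the 21046 genes in the table, 7557 were measured in at least 1 cluster, 3875 in at least 10 and 2384 in all 19.

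Cortex of mice on C57BL/6J was studied with 1 library of single-nucleus RNA sequencing for each of 4 genotypes. The control is Klf4flox/flox, in which the Klf4 gene is flanked by recombination sites. The other libraries are labelled Nos3-/-, Klf4deltaEC, and Klf4deltaECNos3-/-, which joins both changes. The labels do not say whether the Nos3-/- mice also carry the floxed Klf4 alleles, so the libraries compared may differ at Klf4 as well as at Nos3. Not given in the sources used here are the Cre driver, the deleted part of each gene, age, sex and the number of animals in a library. With 1 library on each side no test can be made: every difference below is between individual libraries, and the genotype cannot be told apart from the animal, the dissection or the preparation.

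The nephron is built of segments in series, each known by its transport proteins. The proximal tubule takes back most of the filtered solute through endocytic receptors and sodium-coupled carriers, and burns fatty acids to do so. The thick ascending limb and distal convoluted tubule carry the cotransporters Slc12a1 and Slc12a3, the targets of loop and thiazide diuretics. The connecting tubule moves calcium, principal cells move sodium and water, and intercalated cells move acid and base. Nos3 makes nitric oxide in endothelium, and the gas reaches the tubule from the vessels beside it.

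The targeted gene did not separate the libraries. In endothelial cluster 10, Nos3 (chromosome 5, 24364810 to 24384474, mm10) stood at 1.26 per 10000 in the control, 1.52 in the library labelled Nos3-/-, 0.930 in Klf4deltaEC and 2.07 in Klf4deltaECNos3-/-, from 53, 62, 38 and 69 UMIs. In the 19 clusters its highest level was 0.0621, 0.0971, 0.0496 and 0.135 in the same order, each in unnamed cluster 13. Klf4 in cluster 10 stood at 0.621, 0.445, 0.779 and 0.824, from 26, 18, 32 and 28 UMIs. Both libraries labelled deltaEC were above the control, on counts this small. The deleted part of each gene is not given, so whether the counted tags lie outside it is unknown. The labels could therefore not be checked from these levels. Among the 42 genes measured in at least 10 clusters within 10 Mb of Nos3, 0 shifted across the clusters by the rule used below, which 0.955% of all genes met on the higher side and 1.21% on the lower. The medians of Cd36, a fatty acid receptor (1.47), and Gsap (1.28) were past the limit without a common sign. The number of nuclei in the 19 clusters, inferred from the table, was 6357 in the control and 6605 in the library labelled Nos3-/-, with 68 to 817 and 66 to 891 in a cluster. The median UMI total of a nucleus was lower in the library labelled Nos3-/- in 18 of 19 clusters, with medians over clusters of 3487 in the control and 2094.

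Differences of 2-fold were few in deeply counted clusters and many in shallow ones. Each gene in each cluster was given the log2 ratio of the Nos3-/- library to the control after adding 0.1 per 10000 to both, and a ratio of at least 1 or at most -1 was counted as past the limit. Over 78559 pairs of a gene and a cluster, 4664 were higher (5.94%) and 3707 lower (4.72%). The other 2 libraries, Klf4deltaECNos3-/- over Klf4deltaEC, differ by the same Nos3 label and share no library with this comparison; there 2391 of 79147 pairs were higher (3.02%) and 1905 lower (2.41%). The share past the limit ran from 3.36% in unnamed cluster 7 to 22.2% in thin limb-like cluster 18, and reached 20.9% in proximal tubule-like cluster 12 against 4.57% in proximal tubule-like cluster 0. It followed counting depth: across the 19 clusters its Spearman correlation with the lower of the 2 libraries' UMI totals was -0.893 (a description, since the clusters share their libraries). In 13 of 19 clusters more genes were higher than lower.

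**Figure D1:**
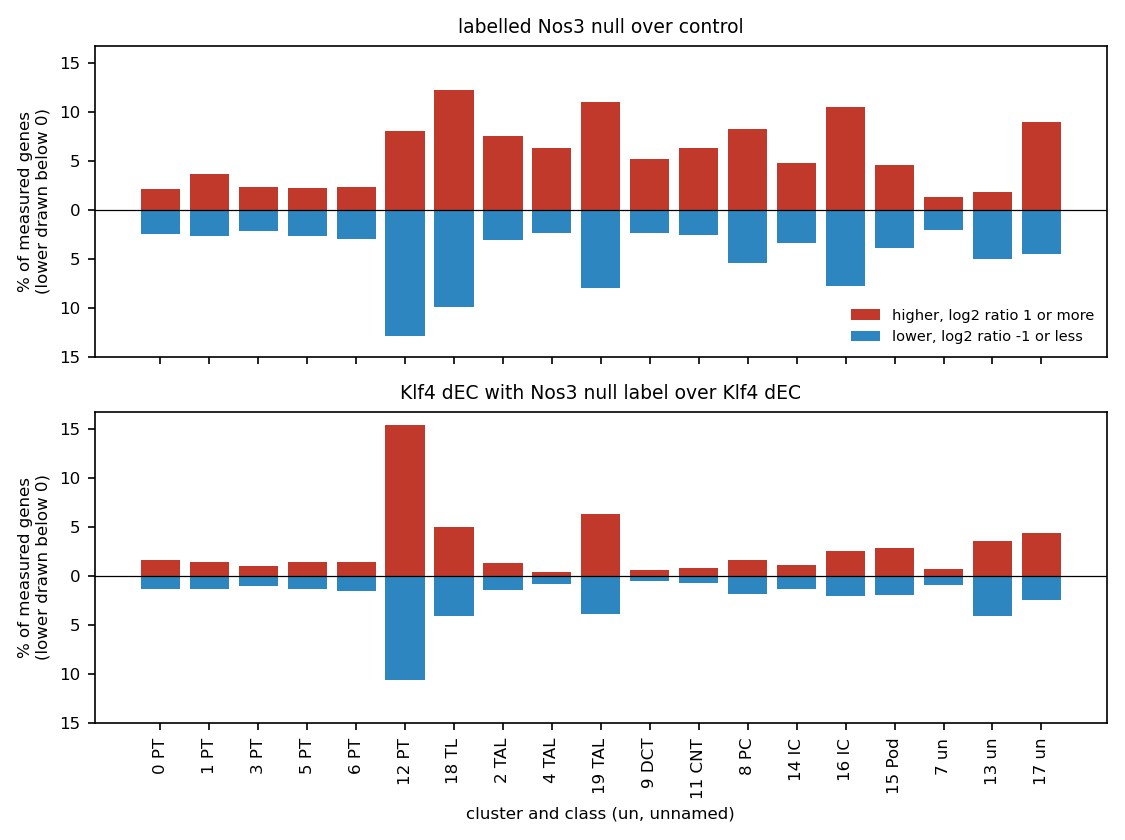
Percent of measured genes past the 2-fold limit in each of the 19 clusters, library labelled Nos3-/- over control, with higher genes above 0 and lower genes below 0. Labels give the class as PT (proximal tubule-like), TL (thin limb-like), TAL (thick ascending limb-like), DCT (distal convoluted tubule-like), CNT (connecting tubule-like), PC (principal cell-like), IC (intercalated cell-like), Pod (podocyte-like) or un (unnamed). The share in both directions together runs from 3.36% in cluster 7 to 22.2% in cluster 18.

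Most genes past the limit were so in very few clusters. Of 3669 genes past it at least once, 2263 (61.7%) were past it in exactly 1 cluster, 980 in 2 to 4, 291 in 5 to 9 and 135 in 10 or more. Kap, Mettl23 and mt-Atp6 were past it in all 19 clusters, each lower in the library labelled Nos3-/-. A gene was called shifted across the clusters when it was measured in at least 10 of them, had the same sign in every one where it was measured and had a median ratio past the limit. This held for 37 higher genes (0.955% of 3875) and 47 lower genes (1.21%), against 2.58% and 1.42% with a median past the limit whatever the signs. For many of these genes only the higher of the 2 libraries reached 0.5 per 10000, which by itself fixes the sign: the control reached it in 429 of the 672 measured pairs of the higher genes, and Nos3-/- in 269 of the 740 of the lower genes. In 2 higher and 17 lower genes the lower library never reached it. The median over all 3875 genes was 0.07, with 60.1% above 0, and with each cluster centred on its own median the numbers became 24 higher and 55 lower. Just inside the limit stood Pdzk1 (1.00) and Cox7b (-1.01), and just outside it Gcnt1 (0.99) and Gtpbp2 (-0.99).

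The genes lower across the clusters included mitochondrial and housekeeping messages, secreted products of the tubule and a group of antisense transcripts. Kap (kidney androgen-regulated protein, a proximal tubule secretory product, chromosome 6, 133849851 to 133853762) had a median level over clusters of 18.2 per 10000 in the control, 4.17 in Nos3-/-, 27.1 in Klf4deltaEC and 18.4 in Klf4deltaECNos3-/-. The library labelled Nos3-/- was the lowest of the 4 in every cluster, and the ratio ran from -2.82 in cluster 19 to -1.12 in cluster 7, with a median of -2.04. In cluster 12, where the other libraries hold it highest, Kap stood at 98.1, 26.6, 121 and 258.

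The genes of the mitochondrial genome were lower as a group. These genes are transcribed inside mitochondria, outside the nucleus, and encode core subunits of the respiratory chain and ATP synthase. Of the 13 on the list, 10 were measured in at least 10 clusters, 0 of 10 had a median above 0, 7 were past the limit (all lower) and the median was -1.20, against 0.07 over all genes. The summed level was below that of the other 3 libraries in 19 of 19 clusters. For mt-Atp6, an ATP synthase subunit, the median levels were 6.33 in the control, 1.5 in Nos3-/-, 6.67 in Klf4deltaEC and 7.07 in Klf4deltaECNos3-/-, a median ratio of -1.85. The smallest change was that of mt-Nd5, a complex I subunit, at -0.45. The 9 nuclear-encoded respiratory chain genes measured that widely had a median of -0.33, with 2 past the limit, Ndufa4 (-1.23) and Cox8a (-1.07), both lower, while Sdhb of complex II stood at 0.44 and Ndufs1 of complex I at -0.09.

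Some messages of other kinds were among the 47 lower genes. Ubb, a polyubiquitin gene, stood in cluster 12 at 2.97 in the control, 0.322 in Nos3-/-, 4.16 in Klf4deltaEC and 8.18 in Klf4deltaECNos3-/-. Fth1, the ferritin heavy chain that stores iron, stood there at 13.9, 4.65, 19.8 and 56.6, and Spp1 (osteopontin, a secreted phosphoprotein that rises with tubule injury) at 10.4, 1.46, 8.02 and 16.5. In each of these 3 genes the Nos3-/- library was the lowest of the 4 in all 19 clusters, and the median ratios were -2.04, -1.61 and -1.69. Slc25a5, a mitochondrial ADP/ATP carrier, had a median ratio of -1.94, Prdx5, a peroxidase, -1.73, Cd81, a tetraspanin, -1.74, and Gpx1, glutathione peroxidase, -1.09. For Ubb, Slc25a5 and Cd81 the Nos3-/- library never reached 0.5 per 10000 (highest 0.322, 0.480 and 0.341), so the filter fixes their sign. Across the alternatives tried, the medians of Ubb and Slc25a5 came up to -0.98 and -0.97. The antioxidant list as a whole was not on the lower side, with 8 of 11 genes above 0 and a median of 0.23. Cytosolic ribosomal genes were mostly under the level needed, but their summed level was below that of the other 3 libraries in 19 of 19 clusters. The list of the unfolded protein response and chaperones was lower for 9 of 10 genes with a median of -0.25, and none of the 10 was past the limit.

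Chd9, a chromatin remodeller, differed from these in level and home. It stood in proximal tubule-like cluster 3 at 76.3 per 10000 in the control, 21.8 in Nos3-/-, 55.0 in Klf4deltaEC and 47.8 in Klf4deltaECNos3-/-. The library labelled Nos3-/- was the lowest in all 19 clusters and the median ratio was -1.17. The control was above the other libraries by median level too, at 24.7 against 10.9, 12.7 and 18.7.

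Antisense and long noncoding genes took a larger place among the lower genes than among those measured. Of 34 antisense genes measured in at least 10 clusters, 11 (32.4%) had a median past the limit on the lower side, against 39 of 3761 protein-coding genes (1.04%), and 2 were past it on the higher side. Of 42 long intergenic noncoding genes, 5 were past it lower (11.9%) and 7 higher (16.7%). Lowest with 0.1 added was a coding gene, Mettl23, a methyltransferase (chromosome 11, 116843278 to 116854263, plus strand), at -2.62. Its median levels were 1.04 in the control, 0.0977 in Nos3-/-, 0.994 in Klf4deltaEC and 1.12 in Klf4deltaECNos3-/-, so that 3 libraries stood close to each other and 1 apart. With 0.5 added its median was -1.41, no longer the lowest, as the ratios of such low genes depend on the amount added. It overlaps the splicing factor gene Srsf2 on the other strand (116849901 to 116853094), which was also lower at -1.14. Reads of such partners may not be separable, since the handling of strand in counting is not stated. For the other 18 pairs in which a lower gene overlaps a gene on the opposite strand, the partner's median lay between -0.41 and 0.49. The next lowest were Gm35188 (-2.40), Gm44686 (-2.30), 4930486I03Rik (-2.28) and Gm11520 (-2.26), noncoding genes of no assigned role, whose medians with 0.5 added were -1.55, -1.03, -1.24 and -1.03.

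**Figure D2:**
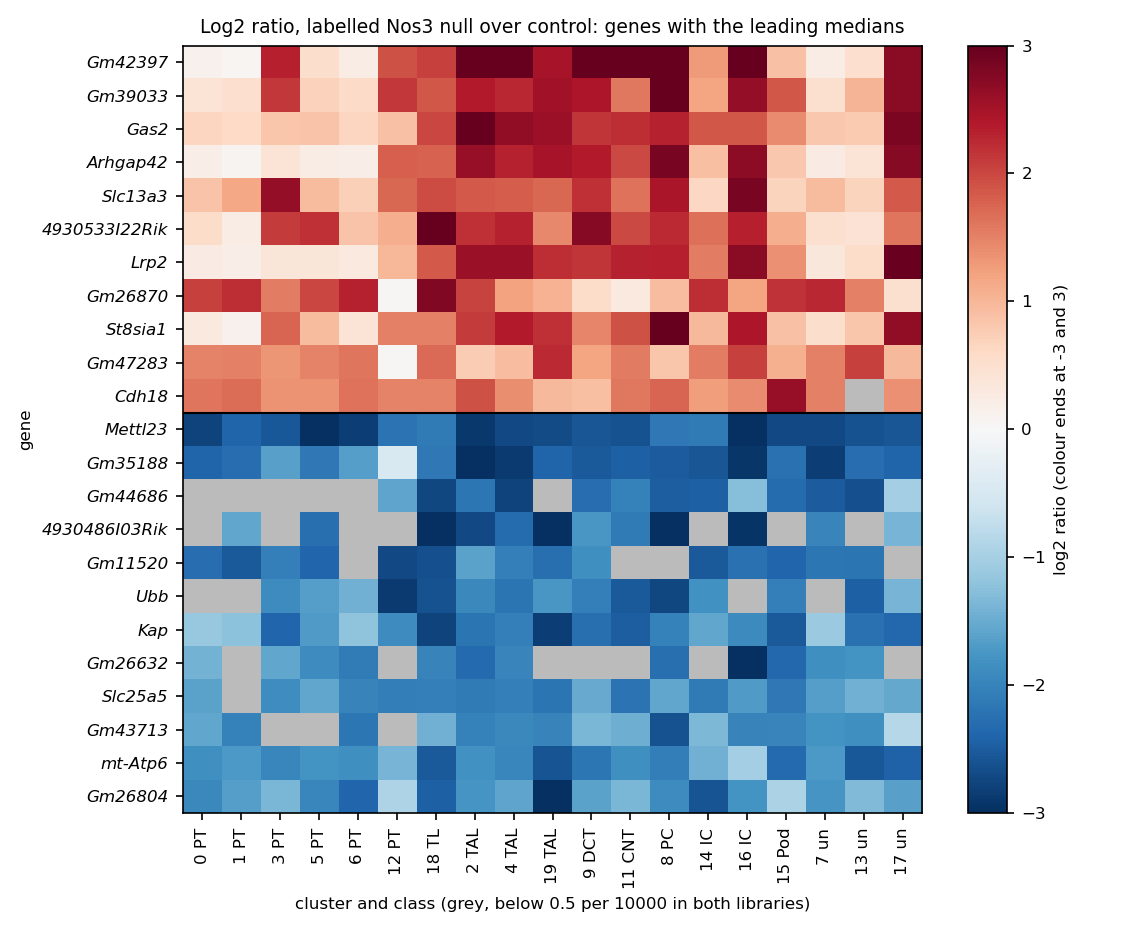
Log2 ratio (library labelled Nos3-/- over control) of genes with the leading medians among those shifted across the clusters, by gene (rows) and cluster (columns), in colour from lower (blue) to higher (red), ending at -3 and 3. Grey cells were under 0.5 per 10000 in both libraries; class letters are PT, TL, TAL, DCT, CNT, PC, IC, Pod and un for proximal tubule-, thin limb-, thick ascending limb-, distal convoluted tubule-, connecting tubule-, principal cell-, intercalated cell- and podocyte-like and unnamed. Each row keeps its sign in every cluster where it was measured.

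The genes higher across the clusters were mostly genes of the proximal tubule, with larger ratios in other clusters than at home. The home of a gene was taken as the cluster with its highest mean in the 2 libraries that the ratio does not use. For 33 of the 37 higher genes that home was proximal tubule-like. In those 33 the median ratio was 0.41 at home and 1.62 outside the proximal tubule-like clusters, and 5 of the 33 were past the limit at home. Since 13 of the 19 clusters lie outside that class, a median chosen to be past the limit largely sets the outside value, which is given as a description. The 47 lower genes did not show this split: 28 had a proximal tubule-like home, 21 of them in cluster 12, and these 28 had a median of -1.41 at home and -1.23 outside.

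Lrp2 (megalin, the endocytic receptor of the brush border, chromosome 2, 69424340 to 69586065) is an example. In proximal tubule-like cluster 5 it stood at 19.2 per 10000 in the control, 24.9 in Nos3-/-, 23.9 in Klf4deltaEC and 20.4 in Klf4deltaECNos3-/-, a ratio of 0.37. In unnamed cluster 17 it stood at 1.18, 9.87, 1.63 and 1.44, a ratio of 2.96. The library labelled Nos3-/- thus lay close to the others at home and far above all 3 in cluster 17. Its median outside the proximal tubule-like clusters was 2.22.

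Carriers and metabolic enzymes of the proximal tubule behaved alike. Slc13a3, a dicarboxylate carrier, stood at home in cluster 6 at 7.48, 12.3, 9.47 and 6.39, with a ratio of 0.71 at home and 1.81 outside. Gatm, which makes the creatine precursor, had 0.19 at home and 1.41 outside, Me1, malic enzyme, 0.13 and 1.99, and Slc1a1, a glutamate carrier, 0.28 and 1.65. Pth1r, the parathyroid hormone receptor, had 0.37 and 1.04, and Gss, glutathione synthetase, 0.59 and 1.20. Acaa1b, a peroxisomal thiolase, departed from the pattern, since it was about as far apart at home in cluster 0 (2.61 in the control, 6.43 in Nos3-/-, 2.47 in Klf4deltaEC and 2.32 in Klf4deltaECNos3-/-, ratio 1.27) as outside (1.23). The fixed list of proximal tubule transport had 16 of 18 genes above 0 by median, 5 past the limit and a list median of 0.58, against 0.07 over all genes.

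On the list of synaptic genes, assembled with results of these data known, 10 of 10 had a median above 0 (60.1% of all genes), 6 were past the limit on the higher side (2.58% of all genes) and the list median was 1.16. That choice of members sets the direction, so the list supports nothing by itself. Gabrb1, a neurotransmitter receptor subunit, was level in podocyte-like cluster 15, its home, at 7.29 in the control and 6.96 in Nos3-/-, and had a median of 1.89 outside. Unc13c, a vesicle priming factor, had 1.85 over all clusters.

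Other leading genes repeated the split between home and elsewhere. Gas2, a cytoskeletal growth-arrest protein, stood at home in cluster 0 at 7.26 in the control, 11.4 in Nos3-/-, 14.02 in Klf4deltaEC and 9.44 in Klf4deltaECNos3-/-, and had a median of 2.15 outside. Arhgap42, a GTPase-activating protein, had 0.19 at home and 2.32 outside, and St8sia1, a ganglioside sialyltransferase, 0.14 and 1.90. The noncoding gene Gm42397 stood at home in cluster 1 at 37.9, 39.4, 35.7 and 29.4, while its median level over clusters was 2.22, 10.7, 2.43 and 2.33. Gm39033 (1.87), 4930533I22Rik (1.65) and Gm26870 (1.53) completed the noncoding or unassigned genes among the leading medians, with Gm47283 on chromosome Y, for which Nos3-/- was above all 3 other libraries in 0 clusters.

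**Figure D3:**
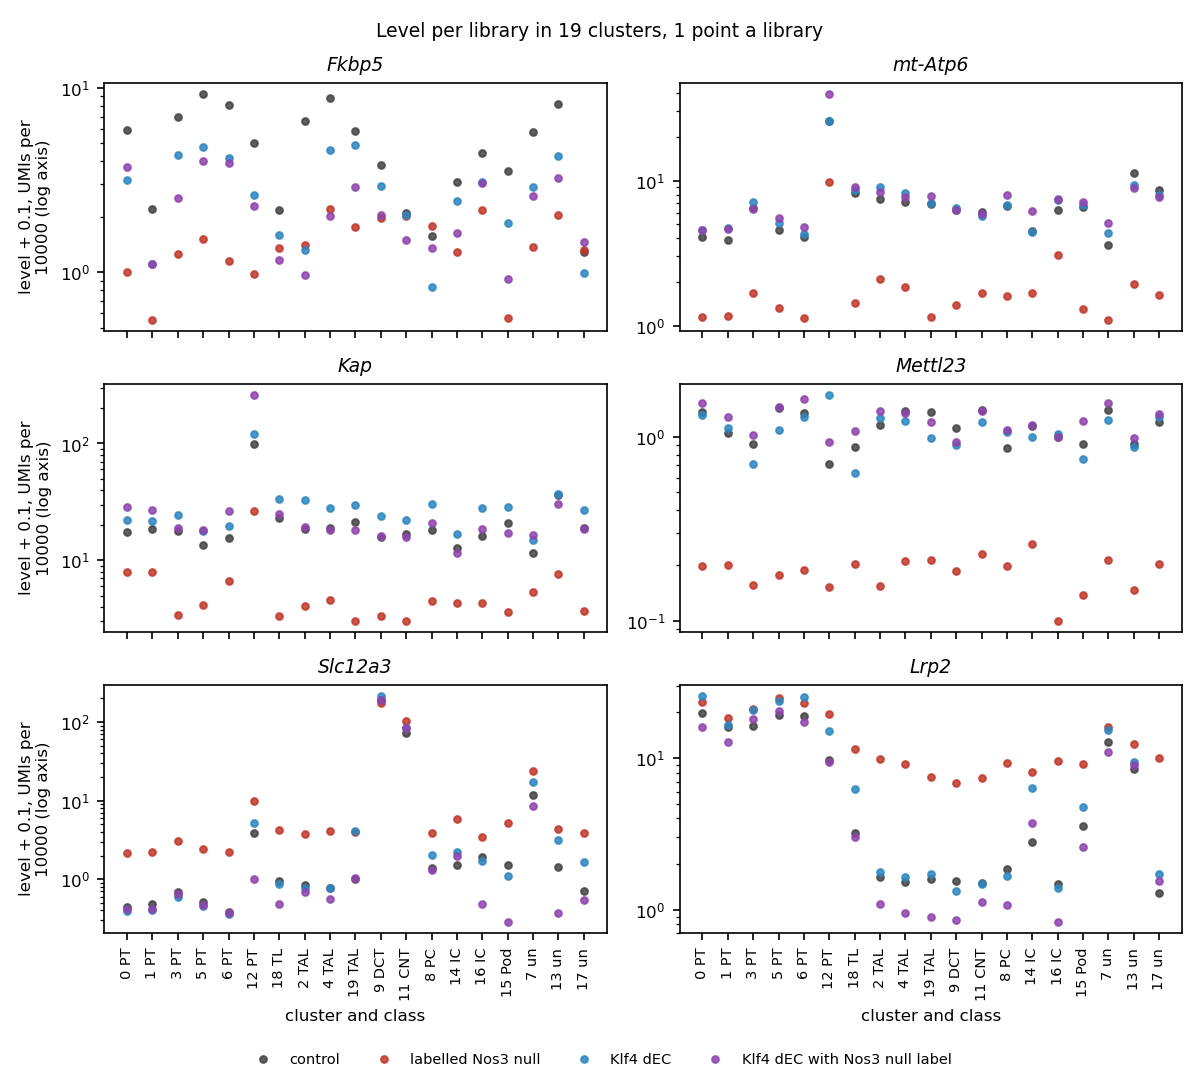
Level plus 0.1 in UMIs per 10000 of Fkbp5, mt-Atp6, Kap, Mettl23, Slc12a3 and Lrp2 in each of the 19 clusters, with 1 point for each of the 4 libraries, on log axes, and the clusters lettered by class as in the plot of genes past the limit. For Kap, Mettl23 and mt-Atp6 the library labelled Nos3-/- lies below the control in all 19 clusters, for Lrp2 above it in all 19, and for Slc12a3 above it in 18, all but its home cluster 9.

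Markers of one segment measured in the clusters of others showed the same thing for most segments. The summed level of 14 proximal tubule markers in the 13 clusters outside that class had a median of 16.4 per 10000 in the control, 54.8 in Nos3-/-, 17.8 in Klf4deltaEC and 12.8 in Klf4deltaECNos3-/-, and it was higher than the control in 13 of 13. Within the proximal tubule-like clusters the median ratio of the same genes was 0.10. Distal convoluted tubule markers were higher in 18 of 18 other clusters (median sum 8.92 against 12.3), intercalated cell markers in 17 of 17 (0.565 against 1.47) and connecting tubule markers in 16 of 18 (4.90 against 16.5). The last sum was not shared by the list, since outside home 3 of its 6 genes had a median above 0, with a list median of 0.04. At home these 3 lists had medians of -0.38, -0.57 and -0.51. Thick ascending limb markers were higher in 11 of 16 other clusters and podocyte markers in 14 of 18. Not every list behaved so: principal cell markers were higher in 5 of 18 other clusters, thin limb markers in 1 of 18 and urothelial markers, summed, in 0 of 19 (0.159 in the control and 0.0191 in Nos3-/-). Endothelial markers were higher in 16 of 19 (1.01 against 2.29), stromal markers in 15 of 19 (0.307 against 0.702) and immune markers in 12 of 19. Most of the measured members did not follow these sums: 2 of 11 endothelial genes (median -0.54) and 5 of 11 stromal genes (median -0.11) were above 0. The part of these foreign markers in the ratios above was not tested.

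Single transporters give the scale. Slc12a3, the thiazide-sensitive cotransporter, stood in distal convoluted tubule-like cluster 9 at 189 in the control, 176 in Nos3-/-, 212 in Klf4deltaEC and 191 in Klf4deltaECNos3-/-, and in proximal tubule-like cluster 0 at 0.349, 2.04, 0.290 and 0.323. Slc8a1, the sodium-calcium exchanger of the connecting tubule, stood at home in cluster 11 at 763, 565, 643 and 574, and in proximal tubule-like cluster 6 at 0.775, 9.14, 0.536 and 0.509. Both were within 1.5-fold of the control at home and several-fold above all 3 other libraries in proximal nuclei. Slc12a1, the loop diuretic target, was lower at home in cluster 2, at 225 in the control and 115 in Nos3-/-, with 225 and 199 in the other libraries, yet higher in proximal tubule-like cluster 1 (1.47 against 4.42). Umod (uromodulin, the main urinary protein of the thick ascending limb) was an exception. Its ratio was below 0 in all 19 clusters (median -0.87), and at home in cluster 4 stood at 24.6, 13.4, 34.6 and 36.7.

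This relation held over genes at large. In their home cluster, 2524 genes reached 2 per 10000 in either library. Of these, 36 were past the limit there on the higher side (1.43%) and 224 on the lower side (8.87%). A part of the lower count came from clusters 12 and 18. Of the 224, 48 were among the 101 genes at home in cluster 12, whose median was -0.98 and of which 0 were past the limit higher. In that cluster the median UMI total of a nucleus was 782 in the control and 1016 in Nos3-/-, and the part of depth was not tested. Another 38 of the 224 were among the 151 genes at home in cluster 18, of which 8 were past the limit higher. For the 2256 with at least 3 measured clusters outside their class, the median ratio was -0.16 at home and 0.17 outside, and 1818 (80.6%) were lower at home than outside. In Klf4deltaECNos3-/- over Klf4deltaEC the same share was 51.4% (1140 of 2217), with medians of 0.02 and 0.05. For genes with a proximal tubule-like home the share was 88.2% against 47.0% in the other 2 libraries. Among connecting tubule-like genes it was 85.2% against 38.5%. The comparisons were closer among podocyte-like genes, at 69.3% against 59.1%, and in unnamed cluster 13, at 78.9% against 76.4%. These genes are not independent of each other, and the difference in depth between the libraries moves with the comparison, so its part was not tested.

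**Figure D4:**
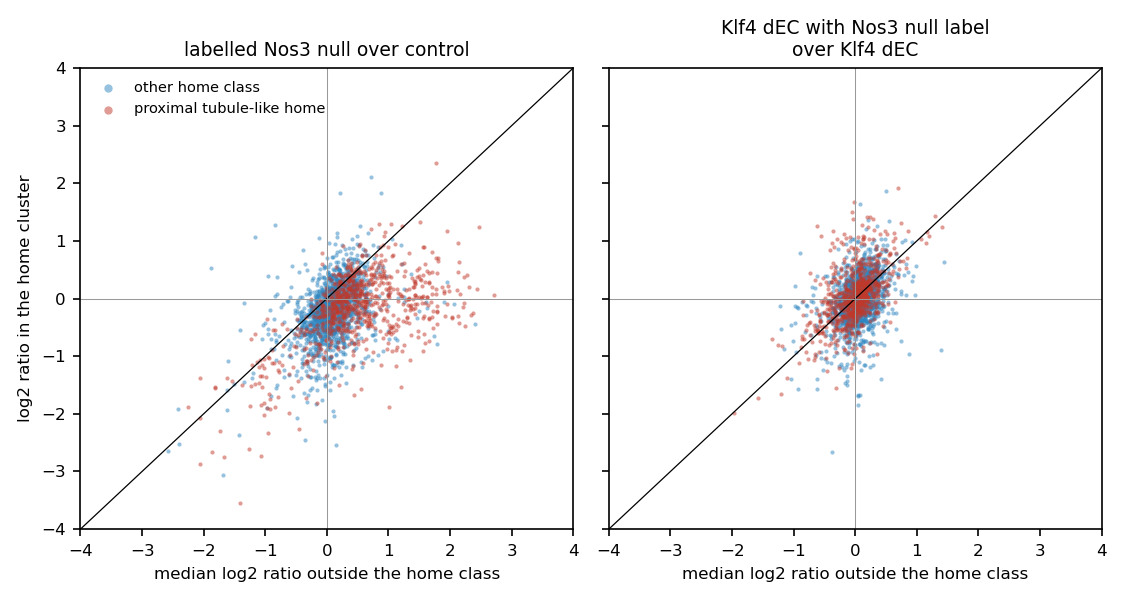
Log2 ratio in a gene's home cluster against its median ratio in clusters outside the home class, with 1 point per gene and the line of equality. The left panel shows the library labelled Nos3-/- over control, where 80.6% of 2256 genes lie below the line, and the right panel Klf4deltaECNos3-/- over Klf4deltaEC, where 51.4% of 2217 do; red points have a proximal tubule-like home.

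Some genes went to both sides, lower in the proximal tubule-like clusters and higher elsewhere, and 3 are given here that were chosen after their values were seen. Slc5a12, a sodium-coupled lactate carrier, stood in proximal tubule-like cluster 3 at 71.6 in the control, 19.3 in Nos3-/-, 43.5 in Klf4deltaEC and 42.4 in Klf4deltaECNos3-/-, a ratio of -1.89, and in unnamed cluster 17 at 1.86, 5.92, 1.10 and 0.859, a ratio of 1.62. The library labelled Nos3-/- was the lowest of the 4 in cluster 3 and the highest in cluster 17. Nox4, an NADPH oxidase, was likewise lower at home in cluster 3 (46.6 against 34.8) and higher outside, with a median of 2.14. Errfi1, a feedback inhibitor of the epidermal growth factor receptor, was lower at home in cluster 5 (34.9 against 22.7) and had a median of 1.57 outside.

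Shifts restricted to a single segment were almost all downward. A gene was placed here when it was past the limit in its home cluster and reached 2 per 10000 there in the higher of the 2 libraries. It also needed the same sign throughout that class and a median within 0.5 of 0 outside it. Where only 1 library reached 2 per 10000, as the control did for Hif1a and Nos3-/- for Hivep1, this fixes the sign. The rule held for 76 lower (3.01% of 2524) and 6 higher genes (0.238%). Of the genes with each home class, these were 27 of 151 in thin limb-like, 13 of 366 in intercalated and 11 of 183 in principal clusters. In proximal tubule-like clusters they were 10 of 834, in thick ascending limb-like 4 of 277 and in podocyte-like 4 of 262. Connecting tubule-like had 2 of 54, distal convoluted tubule-like 1 of 102, and unnamed clusters 13 and 17 had 6 of 158 and 4 of 137. Thin limb-like cluster 18 also had the largest share of all measured genes past the limit, 22.2%, and that share followed depth. In 76 of the 82 the library labelled Nos3-/- lay outside the range of the other 3. Choosing genes past the limit against the control favours this, and the share over all 2524 genes is not given here, so the count is a description only. The intervals below are 95% exact binomial intervals of the ratio and cover counting error only.

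In the thin limb-like cluster, the segment of the countercurrent system, the defining genes themselves were lower. Aqp1, the water channel of the descending thin limb (chromosome 6, 55336432 to 55348555), stood at 4.75 in the control, 0.784 in Nos3-/-, 3.54 in Klf4deltaEC and 6.73 in Klf4deltaECNos3-/-, a ratio of -2.46 (-3.65 to -1.75). Slc14a2, a urea transporter, stood at 6.86, 1.25, 3.80 and 20.6. All 6 measured thin limb markers were below the control, with a median of -2.24, and their sum was 19.7 in the control and 3.47 in Nos3-/-. The cluster held 140 control nuclei and 83 in Nos3-/-, and what share of them are thin limb cells in either library was not tested. Arrdc3, an arrestin-domain adaptor, stood at 3.60, 0.538, 2.50 and 3.25 (ratio -2.53), and Dnm3, a dynamin, at 25.3, 5.72, 18.1 and 22.1 (-2.13). On the higher side, Crim1, a transmembrane binder of growth factors, stood at 5.91, 13.1, 9.94 and 5.48 (1.13), and Ski, a repressor of transforming growth factor signalling, at 1.37, 3.02, 2.11 and 2.13 (1.08).

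In principal cells, which reabsorb sodium and water in the collecting duct, 11 genes were lower and 0 higher. Mpped2, a metallophosphoesterase, stood at 29.4 in the control, 7.49 in Nos3-/-, 9.71 in Klf4deltaEC and 16.1 in Klf4deltaECNos3-/- (ratio -1.96, -2.18 to -1.78). Here the control was the one set apart, since all 3 other libraries were lower. Hif1a, the oxygen-regulated transcription factor subunit, stood at 2.71, 0.779, 3.12 and 2.38 (-1.68, -2.46 to -1.16), with the Nos3-/- library alone at the low end and a median of -0.30 in other clusters. Snx13, an endosomal sorting nexin, had -1.38. Hsd11b2, the enzyme that shields the mineralocorticoid receptor from glucocorticoid, was not restricted to 1 class: it was past the limit, lower, in all 4 clusters where it was measured, and in cluster 8 stood at 3.06, 1.43, 2.90 and 4.18.

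In intercalated cells, which secrete acid or base, Ptbp3, a splicing regulator, stood in cluster 16 at 8.59 in the control, 2.01 in Nos3-/-, 5.26 in Klf4deltaEC and 5.47 in Klf4deltaECNos3-/- (-2.04, -2.68 to -1.54). Pbx3, a homeodomain factor, had -1.49 and Ppp1cb, a catalytic subunit of protein phosphatase 1, -1.45. Foxo1, a forkhead factor under insulin control, was the 1 higher gene, at 1.91, 4.06, 3.03 and 3.71 in cluster 14 (1.05), where the control was the lowest of the 4. In thick ascending limb-like cluster 2, Sgcz, a sarcoglycan on chromosome 8 from 37522298 to 38661508, stood at 58.03, 17.04, 49.96 and 22.65 (-1.76, -1.85 to -1.68). Both libraries with a Nos3-/- label were therefore below both without it. Klf4deltaECNos3-/- over Klf4deltaEC gave -1.14 for Sgcz.

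Proximal tubule-like clusters had 10 lower genes of this kind and 0 higher. Adamts6, a secreted metalloprotease, stood in cluster 5 at 3.05 in the control, 0.558 in Nos3-/-, 0.893 in Klf4deltaEC and 2.14 in Klf4deltaECNos3-/- (-2.26), so it was low in 2 libraries. In cluster 12, Mettl7a1 (-1.82) and Inmt (-1.73), both methyltransferases, followed. In the distal convoluted tubule, Ptgfr, the prostaglandin F receptor, was the only such gene, at 4.79, 2.15, 5.20 and 3.73 (-1.12). In the connecting tubule, Tsc22d2, a leucine-zipper protein, stood at 11.6, 5.41, 8.98 and 12.8 (-1.09).

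Podocytes, the filtering epithelium, had genes on both sides. Man1a2, a Golgi mannosidase, stood at 14.02 in the control, 5.80 in Nos3-/-, 10.8 in Klf4deltaEC and 6.70 in Klf4deltaECNos3-/- (-1.26). Hivep1, a zinc-finger factor, stood at 0.645, 2.55, 1.18 and 2.22 (1.83), so for both genes the libraries labelled Nos3-/- and Klf4deltaECNos3-/- lay together on 1 side. In unnamed cluster 13, Igfbp5, a binding protein of insulin-like growth factors, stood at 4.96, 1.63, 2.37 and 3.90 (-1.55), and in unnamed cluster 17, Lyst, a lysosomal trafficking regulator, stood at 6.55, 2.56, 5.43 and 4.51 (-1.32). Of the 2 other named genes of cluster 17, Vav3, a guanine nucleotide exchange factor, had -1.22 and Plekha1, a phosphoinositide-binding adaptor, -1.02. Daam1, a formin, was the 1 higher gene of cluster 13 (1.03), but Klf4deltaEC was higher still, at 4.41 against 3.18 in Nos3-/-.

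**Figure D5:**
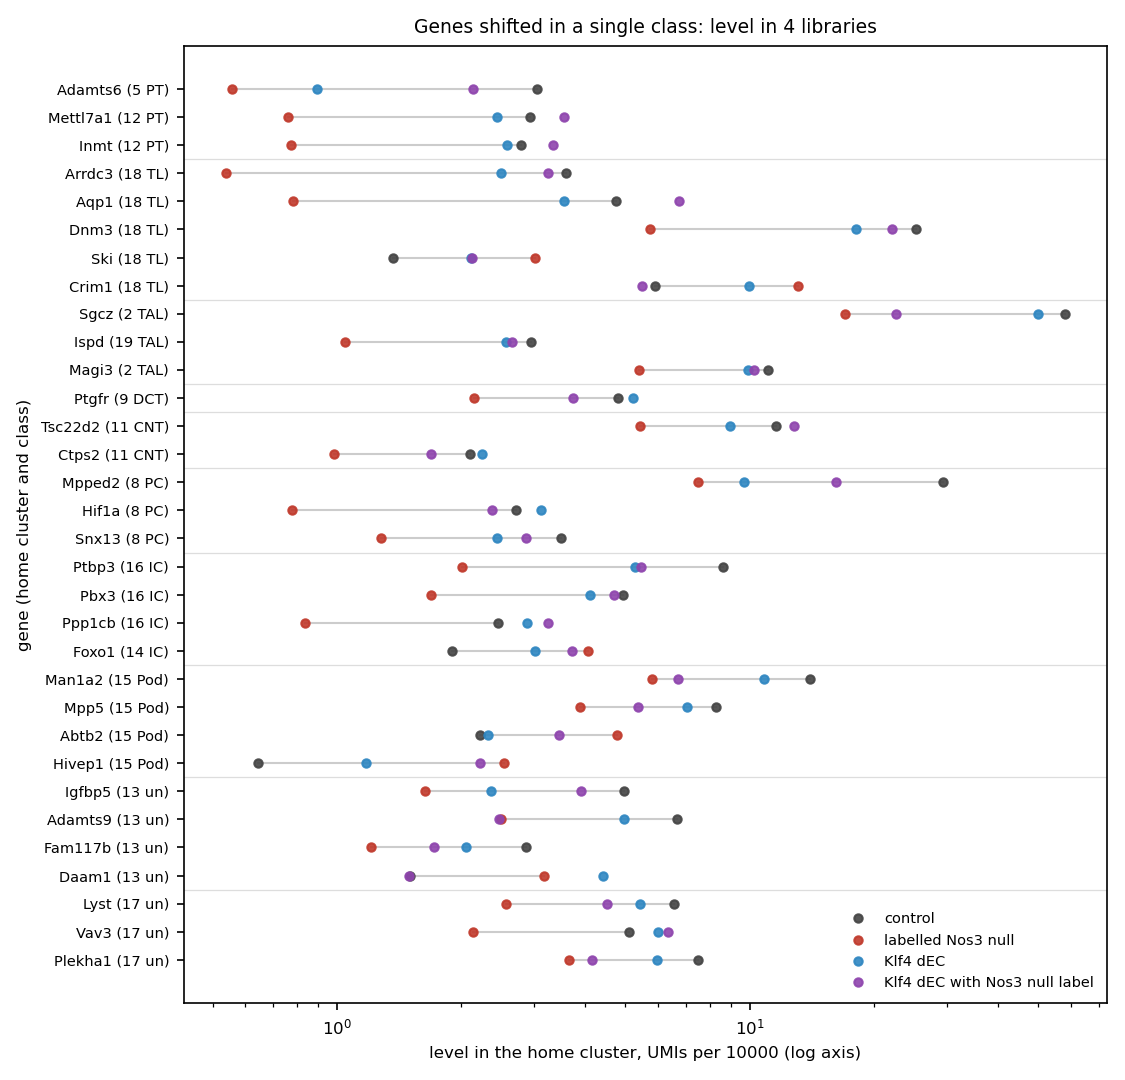
Level in UMIs per 10000, in the home cluster, on a log axis, of the genes shifted in a single segment that the rule names, with 1 point for each of the 4 libraries, a line from the control to the library labelled Nos3-/-, and the home cluster and class in brackets. The library labelled Nos3-/- lies at the low end for Aqp1, Hif1a, Ptbp3 and Sgcz and at the high end for Crim1 and Foxo1.

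Few of these shifts recurred between the other 2 libraries that differ by the Nos3 label. Klf4deltaECNos3-/- over Klf4deltaEC had 5 genes shifted higher across the clusters (0.128% of 3897) and 11 lower (0.282%). Shared with the main comparison were 0 higher and 3 lower genes, Lrrc4, a synaptic adhesion protein, and the noncoding genes Gm16599 and Gm36388. Their medians over the control were 0.94, 0.98 and 0.70 in Klf4deltaEC and -0.17, -0.06 and -0.33 in Klf4deltaECNos3-/-. Their second ratio thus took in a higher Klf4deltaEC. Lrrc4 and Gm36388 never reached 0.5 per 10000 in Nos3-/- (highest 0.298 and 0.274), so the filter fixes the sign of their first ratio. Of the 37 higher genes, 12 (32.4%) lay above 0 in Klf4deltaECNos3-/- over Klf4deltaEC, where 66.7% of all genes did. Past the limit on that side were 0, against 0.155% of all genes. Of the 47 lower genes, 28 (59.6%) lay below 0, where 33.3% of all genes did. Past the limit on that side were 4 (8.51%), Lrrc4, Gm16599, Gm36388 and Gm11520, against 0.361% of all genes. Of the 82 single-segment genes, 39 (47.6%) kept their side in the second pair. Among the 76 lower genes 35 (46.1%) did, near the 47.8% of all 2523 home genes that lay below 0 there. Among the 6 higher genes 4 (66.7%) did, where 52.2% of home genes lay above 0. Past the limit on their side were 2 of the 76 (2.63%, against 2.81% of home genes), Sgcz and Stim1, the calcium sensor of the endoplasmic reticulum (-1.10). Gm11520 was lower in both libraries with a Nos3-/- label. It stood in cluster 16 at 1.00 in the control, 0.134 in Nos3-/-, 0.692 in Klf4deltaEC and 0.0631 in Klf4deltaECNos3-/-. Its median ratio in the second pair was -2.28. Neither library with the label ever reached the level needed to count as measured (highest 0.179 in Nos3-/- and 0.117 in Klf4deltaECNos3-/-). The filter therefore fixes the sign of both ratios. With a median level of 0.328 in Klf4deltaEC, most clusters did not enter the second ratio. The levels themselves kept this order without the filter, with a lowest level of 0.373 in the control and 0.170 in Klf4deltaEC.

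Among glucocorticoid-responsive genes, Fkbp5 and Zbtb16 were lower in most clusters, and more often the control stood apart at the top than the library labelled Nos3-/- at the bottom. Glucocorticoids act through the receptor Nr3c1, which turns on Fkbp5, its co-chaperone and feedback inhibitor, Zbtb16, a zinc-finger factor, Tsc22d3, an anti-inflammatory leucine-zipper protein, and the clock gene Per1. Of 9 genes of the list measured in at least 10 clusters, 5 had medians above 0 and 4 below, with 1 past the limit higher (Errfi1, 1.10), 2 lower, and a list median of 0.10. Nr3c1 itself stood at 0.10.

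Fkbp5 (chromosome 17, 28399094 to 28517527, minus strand) stood in proximal tubule-like cluster 5 at 9.14 in the control, 1.41 in Nos3-/-, 4.70 in Klf4deltaEC and 3.90 in Klf4deltaECNos3-/-, and in podocyte-like cluster 15 at 3.42, 0.468, 1.74 and 0.823. The control was the highest of the 4 libraries in 17 of 19 clusters and Nos3-/- the lowest in 13. The median ratio was -2.005, and 14 clusters were past the limit, lower. It was level in principal cell-like cluster 8 (0.18), connecting tubule-like cluster 11 (-0.04) and unnamed cluster 17 (0.03). Zbtb16 was lower past the limit in 13 of 18 clusters, with a median of -1.78. In unnamed cluster 13 it stood at 13.1, 3.35, 7.42 and 3.07, and in cluster 17 its ratio was 1.22. Tsc22d3 had a median of -0.73 and lay below the control in 13 of 13 clusters. For Per1 the median was -0.69, with cluster 8 on the other side at 0.170 in the control, 0.683 in Nos3-/-, 1.10 in Klf4deltaEC and 1.39 in Klf4deltaECNos3-/-. Per2, its partner in the clock, had -0.67, Bhlhe40, a clock repressor, 0.77, and the clock list as a whole a median of -0.14 over 9 genes. The labels give no time of day for collection.

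The windows of 250 bases before the start of Fkbp5 (chr17:28486150-28486399, minus strand, at a RefSeq start inside the gene's span) and Per1 (chr11:69098699-69098948, plus strand) are shown as those of the 2 genes on the glucocorticoid list measured in at least 10 clusters with a median below 0 that hold the motif described here; Per1 is also on the clock list. They come from RefSeq on GRCm38.p6, are written 5' to 3', and the capitals mark CACGTG, the E-box that clock factors can bind, which reads the same on both strands.
Fkbp5: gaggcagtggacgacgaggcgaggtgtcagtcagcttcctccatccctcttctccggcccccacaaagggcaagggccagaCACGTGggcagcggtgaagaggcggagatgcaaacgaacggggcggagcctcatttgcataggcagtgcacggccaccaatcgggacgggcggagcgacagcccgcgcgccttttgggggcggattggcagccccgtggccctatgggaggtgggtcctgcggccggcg
Per1: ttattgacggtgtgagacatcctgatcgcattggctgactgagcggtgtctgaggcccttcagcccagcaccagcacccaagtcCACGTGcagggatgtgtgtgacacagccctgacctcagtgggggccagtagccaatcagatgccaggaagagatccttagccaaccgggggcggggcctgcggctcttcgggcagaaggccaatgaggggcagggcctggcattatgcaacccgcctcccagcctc
The motif starts at base 82 in Fkbp5 and at base 85 in Per1. A second start of Per1, with its window at chr11:69099902-69100151, lacks the motif. CACGTG was found in 6.02% of 32851 such windows of all genes, and in windows of 10.9% of the 3053 genes measured in at least 10 clusters that have one. On the glucocorticoid list 4 of 16 genes held it and on the clock list 5 of 17, Per1 being on both. The hormone receptor's hexamer AGAACA, searched on both strands (TGTTCT on the other), was in neither window shown and in 16.1% of all windows. The motifs and the pair of genes were chosen after matches in 14 genes had been seen, and a match is a description of letters only.

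The lists not yet described are given by their counts and medians, beside the 0.07 of all genes. The nitric oxide and cGMP list takes in the synthases, genes of arginine supply and genes of cGMP signalling. It had 5 genes measured in at least 10 clusters, 4 of them above 0. Its median of 0.62 was 0.01 with only genes at 2 per 10000 or more. Prkg1, the cGMP-dependent kinase, stood at 27.2 in the control and 27.8 in Nos3-/- at home in cluster 13, and had 1.24 outside. Ass1, which with its partner remakes arginine for nitric oxide synthase, had 0.71 at home in cluster 5 (12.5 in the control, 20.5 in Nos3-/-, 12.4 in Klf4deltaEC and 10.1 in Klf4deltaECNos3-/-) and 1.77 outside. Fatty acid oxidation had 10 of 16 above 0 and a median of 0.13, and gluconeogenesis and ammoniagenesis 6 of 10 and 0.25. Distal convoluted tubule and WNK signalling had 12 of 15 above 0 and a median of 0.17. Collagen and matrix had 2 of 7 above 0 and -0.23. Of the sex-linked and androgen-responsive genes 5 of 12 were above 0, with a median of -0.06. Kap was the 1 past the limit on the lower side, while Odc1, ornithine decarboxylase, another androgen-responsive gene, had -0.80.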

How the data were processed

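Nuclei of kidney cortex were profiled on the 10X Chromium system, and the reads went through Cell Ranger and Seurat on mm10, per the submitters' processing notes, which name no versions. Deposited values are a normalized signal, the mean over the nuclei of a cluster and library of UMIs per 10000 UMIs, for 21046 genes in 92 columns that each sum to 10000. Clusters are the authors', and the treatment of doublets is not stated. Python 3.11.15, numpy 2.4.6, pandas 2.3.3 and scipy 1.17.1 were used. Log2 ratios used a pseudocount of 0.1 and genes at 0.5 or more in either library. Gene positions are GENCODE M21, with 20681 genes placed uniquely.

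Nuclei numbers and UMI totals were inferred from the arithmetic of the lowest values, the largest number dividing at least 75% of the lowest 80 reciprocals. These settings were tuned after the table and an earlier simulation were seen. Columns were simulated from the control with 1 profile each. Their nuclei numbers were either just above those inferred, or well below them with lower UMI totals of a nucleus. The number was found in 38 of 38, with UMI totals off by at most 7.77%. The level of 3 counts was 0.00591 to 0.280 per 10000 in the control and 0.0129 to 0.239 in the library labelled Nos3-/-.

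Named were the 12 highest and 12 lowest genes shifted across clusters, the 3 highest and 3 lowest in each class, list members, Nos3 and its neighbours. Some genes that this rule names are not reported here. Genes just inside or outside the limit, Lrrc4 and Stim1, and those chosen as examples at home and outside were picked after their values were seen. Members, lists and rules were chosen with earlier results of these data known. Alternatives tried were the pseudocount, the filter, the limit and centring. Added after seeing the data were a looser sign rule, leaving out proximal tubule-like clusters and a higher home level.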

Additional observations from a re-analysis of the deposited data

Results flagged for a closer look

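For Cdh18, a cadherin shifted higher across the clusters, the other 2 libraries that differ by the Nos3 label lay past the limit on the opposite side, and the difference between the comparisons was not tested. Its median log2 ratio was 1.49 in the library labelled Nos3-/- over control and -1.57 in Klf4deltaECNos3-/- over Klf4deltaEC. The control never reached 0.5 per 10000, so each cluster entered through the Nos3-/- library, which fixes the sign of the first ratio, and with 0.5 added that median was 0.80. Klf4deltaECNos3-/- never reached it either (highest 0.255), so Klf4deltaEC fixes the sign of the second ratio in the same way. The median level in Klf4deltaEC was 0.427, so most clusters did not enter the second ratio. At home in intercalated cell-like cluster 14 it stood at 0.222 in the control, 0.671 in Nos3-/-, 0.618 in Klf4deltaEC and 0.154 in Klf4deltaECNos3-/-. The libraries labelled Nos3-/- and Klf4deltaEC were thus high, and the control and Klf4deltaECNos3-/- low.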

How the results depend on the processing

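Recomputed were only the genes that the rule names as leading across clusters or in a single segment, and none of them changed sign. This was largely set beforehand. A changed pseudocount or limit cannot turn the sign of a ratio, and the leading genes were chosen for a common sign. Other genes given in the text were not recomputed. The share of genes lower at home than outside ran from 77.2% to 86.5%. Of 93 recomputed counts and shares, 60 stayed within 1.5 times the main value. A pseudocount of 0.5 gave 1866 pairs higher and 1205 lower, 15 and 19 genes shifted across clusters, 3 single-segment genes higher and 0 lower in both comparisons; one of 0.02 gave 1 higher in both. A filter at 2 gave 1347 and 816 pairs, 14 and 16 genes across clusters, 32 single-segment genes lower and 0 lower in both. With no filter there were 9447 and 11541 pairs, so that lower pairs were then the more numerous, 88 genes lower across clusters and 16 single-segment genes higher. Centring gave 24 genes higher across clusters, 3 single-segment genes higher and 5 lower in both. A limit of 1.5 gave 1937 and 1392 pairs, 10 and 23 genes across clusters, 1 and 21 single-segment genes and 0 lower in both. Of the alternatives chosen after seeing the data, the same sign in at least 0.9 of clusters gave 62 higher across clusters and 1 higher in both, leaving out the 6 proximal tubule-like clusters gave 86 higher and 1 lower in both, and a home level of 5 gave 1 and 41 single-segment genes. Stricter settings test fewer genes; beyond that the cause was not tested. No paired analysis was possible because each genotype has 1 library, and none could be left out. Of the named genes' recomputed values 31 moved, mostly with the pseudocount. The median over all genes ran from -0.03 to 0.14, and the medians of the collagen, collecting duct, clock, glucocorticoid, gluconeogenesis, hypoxia, renin-angiotensin and sex-linked lists changed sign under some alternative. Depth limits the small clusters most, where low genes rest on few UMIs.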
